A study of Mus musculus with 6 samples.

Results

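Autophagy machinery and mTOR control genes are described here in mouse hippocampal cells after knockdown of Diras2, which encodes a small GTPase related to Ras. The group holds 45 genes chosen by name for their place in the pathway, of which 44 were measured among the 22180 genes tested. Optn, a receptor that brings ubiquitin-marked cargo into autophagosomes, was not analysed here. A gene is represented by its brightest probe set that the platform annotation gives to that gene alone.

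The cells were primary cultures from the hippocampi of mouse embryos at prenatal day 18, all infected with AAV1/2, an adeno-associated virus, 7 days after seeding with the same number of virus particles per well, and lysed for RNA 7 days after infection. In 3 samples the virus carried the Diras2 knockdown and in 3 control samples a scrambled sequence, so virus infection was common to both groups. The labels name neither the mouse strain nor the construct's promoter and sequence, and a single knockdown construct cannot tell loss of Diras2 apart from other effects of that construct. The samples are labelled as biological replicates, but no label ties them to separate cultures or litters. The p-values therefore measure only the spread among these 6 samples, which may in part be technical.

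Autophagy encloses cytoplasm in a double membrane and delivers it to lysosomes, and neurons depend on it because they cannot dilute damaged material by dividing. A kinase complex built on Ulk1 starts the process, a class III phosphatidylinositol 3-kinase marks the site, and a pair of ubiquitin-like conjugation reactions attaches Atg8 proteins such as LC3 to the growing membrane. The kinase mTOR, in its complex mTORC1, restrains the Ulk1 complex while nutrients and growth factors are plentiful. Most of this control works on proteins and their phosphorylation, which an RNA measurement does not show.

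Each sample was read on 1 Affymetrix array, the values are log2 RMA expression levels, and precision is limited by how few arrays there are. Array medians lay between 4.03 and 4.11. The labels give RNA integrity numbers of 9, 9.3 and 9.2 for the knockdown and of 9.2, 9 and 8.8 for the control samples. Diras2 itself stood at 7.17, 6.23 and 6.08 in the knockdown arrays and 10.17, 10.17 and 9.76 in the controls, 11.6-fold lower by the group means. Its relative Diras1 was 2.54-fold lower too (limma adjusted p 0.00106), called in all 16 alternatives. All 9 neuron markers and 7 of 8 astrocyte markers had a mean level of at least 6. So did 2 of 5 oligodendrocyte precursor markers and 3 of 6 fibroblast and pericyte markers, so the cultures were mixed. By contrast, 4 of 6 microglia markers and 4 of 5 endothelial markers had a mean under 5. The astrocyte (0 of 8), oligodendrocyte (0 of 4), microglia (0 of 6) and endothelial (0 of 5) lists held no called gene at an adjusted p under 0.05 by limma, with 1, 0, 2 and 0 genes at an unadjusted p under 0.05. With the replicate number as a block, Gja1 of astrocytes (limma adjusted p 0.0385) and Csf1r of microglia (0.0339) passed, both lower in the knockdown. 

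In the knockdown, Mtor, the kinase that restrains autophagy, rose 1.98-fold, and Ulk1, whose kinase starts autophagy, fell 1.73-fold. Atg5 and Atg14, needed to build autophagosomes, also rose, by 1.44-fold each, and Deptor, an inhibitor of mTOR, and Atg16l1, the partner of Atg5, fell 1.70-fold and 1.42-fold. The other 38 measured members did not pass the test, which was limma's moderated test at an adjusted p under 0.05 over all genes. Thus 3 members rose, 3 fell, and the median log2 difference of the 44 was -0.02, with 21 above 0 and 23 below.

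These 6 calls are 13.6% of the members, against 7.80% of all genes tested (4.17% higher and 3.64% lower). The members were mostly well expressed, however, with 42 of 44 at a mean level of at least 6. Among the 9016 genes at that level 15.9% were called (8.66% higher and 7.25% lower), and among the 42 members at that level 14.3%, a share near the background. The knockdown and control values did not overlap for 18 members (40.9%), 8 of them higher and 10 lower in the knockdown, against 25.5% of all genes (13.4% higher and 12.1% lower). Among the genes at a mean level of at least 6 that share was 41.3% (23.1% and 18.1%). An unadjusted p under 0.05 was reached by 36.4% of the members, 20.9% of all genes and 35.7% of the genes at that level. The median size of the log2 difference was 0.18 for the members and 0.21 for the genes at that level. The counts of members are thus near the background of well-expressed genes, and the results below are given gene by gene.

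The RefSeq table of promoters (assembly GRCm38.p6) holds a window of 300 bases, from 250 before to 50 after a start of transcription, for 36 of the 45 members. Of the 6 members that passed the test it holds Mtor, Ulk1, Atg14 and Atg5, and these 4 are printed to show what lies at the starts of the genes that moved. Each runs 5′ to 3′ on the gene's strand, and capitals mark the hexamer CACGTG, the E-box core within the element that TFEB, a transcription factor for lysosomal and autophagy genes, binds.
Mtor, chr4:148448332-148448631, plus strand: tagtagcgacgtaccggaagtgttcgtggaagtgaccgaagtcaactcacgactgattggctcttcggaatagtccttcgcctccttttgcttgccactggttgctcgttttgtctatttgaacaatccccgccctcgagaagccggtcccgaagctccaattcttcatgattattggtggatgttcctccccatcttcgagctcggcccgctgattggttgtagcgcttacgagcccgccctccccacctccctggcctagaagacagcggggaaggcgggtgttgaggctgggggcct
Ulk1, chr5:110810032-110810331, minus strand: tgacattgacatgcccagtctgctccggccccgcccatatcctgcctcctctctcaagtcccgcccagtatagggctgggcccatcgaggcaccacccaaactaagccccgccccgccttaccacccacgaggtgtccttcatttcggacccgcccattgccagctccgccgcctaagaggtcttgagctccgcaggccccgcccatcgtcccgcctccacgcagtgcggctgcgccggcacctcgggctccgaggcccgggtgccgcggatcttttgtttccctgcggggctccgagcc
Atg14, chr14:47568385-47568684, minus strand: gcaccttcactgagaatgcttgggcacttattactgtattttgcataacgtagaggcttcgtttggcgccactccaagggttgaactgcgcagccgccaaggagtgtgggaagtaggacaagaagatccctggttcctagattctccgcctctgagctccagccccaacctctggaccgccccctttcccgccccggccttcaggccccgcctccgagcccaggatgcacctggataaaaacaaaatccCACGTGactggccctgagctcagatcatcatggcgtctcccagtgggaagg
Atg5, chr10:44268089-44268388, plus strand: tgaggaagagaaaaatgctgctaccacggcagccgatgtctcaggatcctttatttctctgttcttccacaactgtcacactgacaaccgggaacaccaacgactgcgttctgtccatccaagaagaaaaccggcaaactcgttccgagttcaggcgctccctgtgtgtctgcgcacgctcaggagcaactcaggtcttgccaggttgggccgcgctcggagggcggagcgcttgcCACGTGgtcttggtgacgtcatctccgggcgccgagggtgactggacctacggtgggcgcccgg
The hexamer stands in the windows of Atg14 and Atg5, at bases 250 and 237 of the window, and not in those of Mtor and Ulk1. Searched on both strands, CACGTG, a search added after the data were seen, was found for 4 of the 36 members (11.1%; Atg14, Atg3, Atg5 and Atg7) and for 8.09% of the 27025 genes in the table. The longer form TCACGTG, which contains it, was found for 3 (8.33%; Atg14, Atg3 and Atg7) against 4.29%. GTAAACA, a core of FoxO binding sites, was found for 0 of 36 against 4.05%. Atg3 and Atg7, which carry the hexamer too, did not pass, at log2 differences of -0.02 and -0.33. Median GC content of the windows was 59.7% for the members, 52.8% for all genes in the table and 62.0% for 7207 genes with a window and a mean level of at least 6. The motif shares above are over all genes in the table, whose windows held less GC than those of the members.

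**Figure D1:**
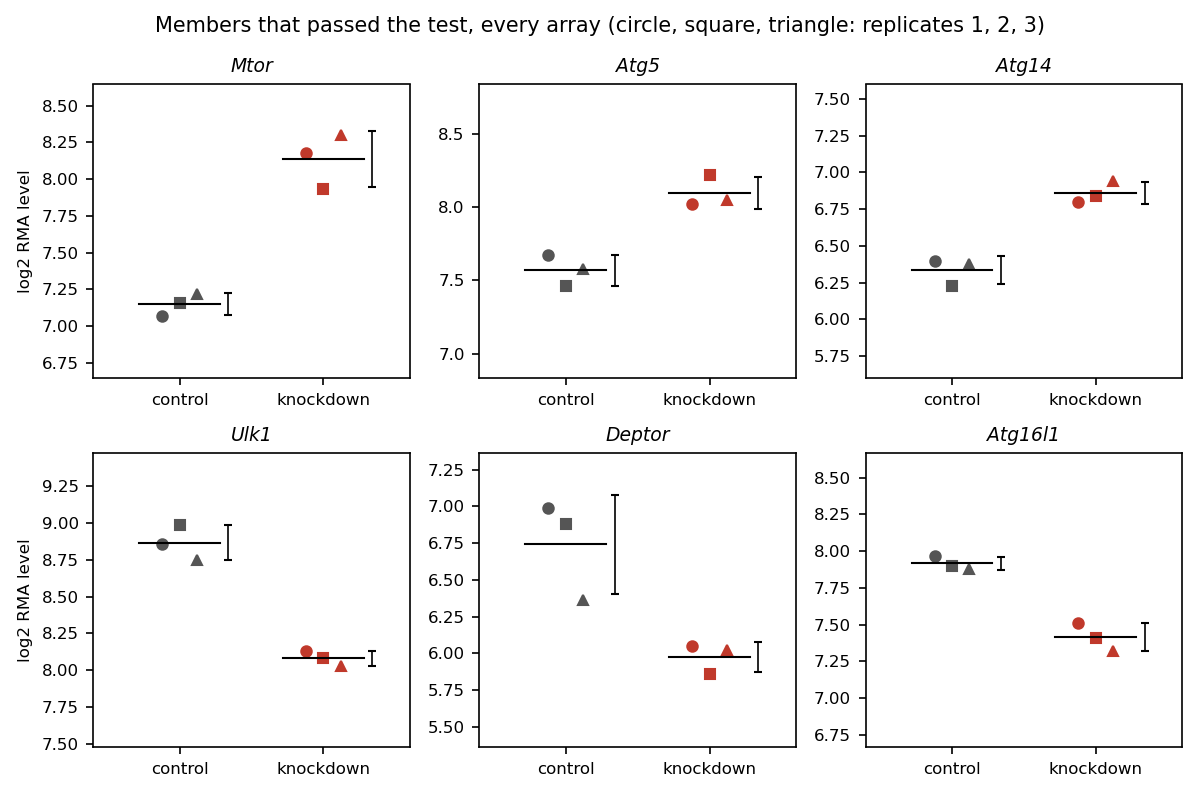
Log2 RMA levels of the 6 members that passed the test, 1 point per array, by group; lines are group means, bars are SD (n = 3) and every panel spans 2 log2 units. Mtor, Atg5 and Atg14 were higher and Ulk1, Deptor and Atg16l1 lower in all 3 knockdown arrays than in any control array.

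Mtor had levels of 8.18, 7.93 and 8.30 in the knockdown arrays and 7.07, 7.16 and 7.22 in the controls. The groups were far apart, with the lowest knockdown array well above the highest control. Its log2 difference was 0.99 (SE 0.12, 95% interval 0.71 to 1.26) and its limma adjusted p 0.00302. The call held in all 16 alternative fits, at adjusted p-values of 0.00144 to 0.0216. An exact permutation test of Mtor alone, two-sided, gave a p of 0.1, and 3 arrays against 3 can give no smaller one.

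Of the 4 other members that control mTOR, Deptor was called. Deptor binds mTOR and inhibits it, and its levels were 6.05, 5.86 and 6.02 in the knockdown and 6.99, 6.88 and 6.36 in the controls. Control replicate 3 lay nearer to the knockdown arrays than to the other controls. The log2 difference was -0.77 with an SE of 0.17 (adjusted p 0.0300, limma). A second, dim probe set of Deptor also had a lower mean in the knockdown, 3.75 against 4.19. The call of Deptor was lost without knockdown replicate 1 (0.0632), 2 (0.12) or 3 (0.0915) and without control replicate 1 (0.0674) or 2 (0.125), and the adjusted p was 0.00586 without control replicate 3.

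Rptor encodes raptor, the scaffold that defines mTORC1, and its log2 difference was -0.08 (95% interval -0.33 to 0.18). Tsc1 and Tsc2, which together hold mTORC1 back by acting on the GTPase Rheb, had log2 differences of 0.17 (-0.09 to 0.43) and 0.11 (-0.13 to 0.35). A change of the size seen for Mtor lies outside all 3 intervals.

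Ulk1 had levels of 8.13, 8.08 and 8.03 in the knockdown and 8.86, 8.99 and 8.75 in the controls. Both groups were tight, with SDs of 0.05 and 0.12, and clearly separate. The log2 difference was -0.79 (SE 0.10, 95% interval -1.02 to -0.55; limma adjusted p 0.00368). It was called in all 16 alternative fits as well, at 0.00118 to 0.0244. Mtor and Ulk1 were the 2 members of which this held.

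Within the same kinase complex, Rb1cc1, the large scaffold also called FIP200, had levels of 8.57, 8.47 and 8.47 against 9.08, 8.80 and 8.84 in the controls. Ulk2, the close relative of Ulk1, had 9.31, 8.93 and 8.91 against 9.63, 9.40 and 9.33. Neither overlapped between the groups, though the margin for Ulk2 was narrow. Both had a log2 difference of -0.40 and did not pass, with adjusted p-values by limma of 0.0661 for Rb1cc1 and 0.144 for Ulk2. With the replicate number as a block they passed, at 0.0426 and 0.0402, where the alternatives ran from 0.0286 to 0.193 and from 0.0402 to 0.351. Atg13, the regulatory subunit of the complex, had a log2 difference of 0.12 (-0.10 to 0.35). The within-array log2 ratio of Ulk1 to Ulk2 differed by -0.38 (SE 0.15) between the groups, with an exact two-sided permutation p of 0.1. This was 1 of 5 ratios between partner genes that were compared, all chosen after their values were seen; each had a p of 0.1, also after adjustment over the 5, and no smaller p was possible.

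The class III phosphatidylinositol 3-kinase exists in alternative complexes, in which Atg14 directs it to autophagosome formation and Uvrag to endosomes. Atg14 had levels of 6.80, 6.84 and 6.94 in the knockdown and 6.40, 6.23 and 6.38 in the controls, without overlap. On the log2 scale it was 0.52 higher, with an SE of 0.10 and a limma adjusted p of 0.0179. Uvrag had a log2 difference of -0.13 (-0.38 to 0.12). The ratio of Atg14 to Uvrag within an array was 0.65 (SE 0.08) higher on the log2 scale in the knockdown (exact two-sided permutation p 0.1). The call of Atg14 was lost when knockdown replicate 2 (0.0686), knockdown replicate 3 (0.0754) or control replicate 2 (0.0854) was left out, and when RNA integrity entered the fit (0.0857).

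Subunits common to both complexes did not pass, nor did Ambra1. Becn1, encoding beclin, stood at 8.11, 8.11 and 7.91 in the knockdown and 7.99, 7.78 and 7.45 in the controls. The groups overlapped, and the log2 difference was 0.30 (-0.04 to 0.64). Pik3c3, the catalytic subunit, had a log2 difference of 0.17, Pik3r4, its regulatory partner, -0.15, and Ambra1, which links beclin to ubiquitin ligases, -0.03.

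Of 7 members that bring membrane and lipid to the growing autophagosome, 0 passed by limma, and 3 had an unadjusted p under 0.05. Wipi1, which reads the lipid made by the kinase, had levels of 7.66, 7.43 and 7.72 against 8.10, 7.96 and 7.96 in the controls. Atg2b, a lipid transfer protein, had 7.81, 7.69 and 8.06 against 7.53, 7.49 and 7.40. Each was separate between the groups, Wipi1 lower and Atg2b higher in the knockdown. Neither passed, at log2 differences of -0.40 (limma adjusted p 0.0718) and 0.38 (0.106). Wipi1 passed with a minimum mean level of 5 or of 6 and with array weights (0.0321 to 0.214 over the alternatives). Atg2b passed in none (0.0507 to 0.289).

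The relatives of these genes did not pass either. Atg2a, the paralogue of Atg2b, had a log2 difference of -0.28 (-0.58 to 0.03). Wipi2 and Wdr45, relatives of Wipi1, had -0.17 and 0.00, and Atg9a, the membrane-spanning scramblase, had 0.10. Vmp1, an endoplasmic reticulum protein, had a dim probe set at 4.46, 4.21 and 4.60 against 4.03, 4.14 and 4.2, groups that barely separated, at a log2 difference of 0.30 (limma adjusted p 0.214). Whether levels this low lay above background was not tested.

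The conjugation machinery joins Atg12 to Atg5, and the pair binds Atg16l1 to form the enzyme that attaches Atg8 proteins to membrane. Its 2 called members went opposite ways. Atg5 had levels of 8.02, 8.22 and 8.05 in the knockdown and 7.67, 7.46 and 7.58 in the controls, a log2 difference of 0.53 with an SE of 0.11 (limma adjusted p 0.0232). Atg16l1 had 7.51, 7.41 and 7.32 in the knockdown and 7.97, 7.90 and 7.88 in the controls, a difference of -0.50 with an SE of 0.10 (limma adjusted p 0.0191). Neither gene overlapped between the groups. The log2 ratio of Atg5 to Atg16l1 was 0.51, 0.81 and 0.73 in the knockdown arrays and -0.30, -0.44 and -0.30 in the controls, a shift of 1.03 (SE 0.10; exact two-sided permutation p 0.1). As both genes separated, in opposite directions, their ratio had to separate too.

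Both calls were lost in several of the fits that left out 1 array. That of Atg5 was lost when knockdown replicate 2 (0.0934) or 3 (0.0692) or control replicate 2 (0.103) or 3 (0.0534) was left out. That of Atg16l1 was lost when knockdown replicate 2 (0.0771) or 3 (0.0786) or control replicate 1 (0.0518) or 2 (0.0774) was left out. Once RNA integrity entered the fit, Atg5 had an adjusted p of 0.109 and Atg16l1 of 0.0841. The log2 difference itself moved little, from 0.46 to 0.58 for Atg5 and from -0.55 to -0.46 for Atg16l1 over the fits that left out an array.

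The remaining conjugation genes did not pass. Atg10, the enzyme that joins Atg12 to Atg5, had levels of 6.74, 6.75 and 6.64 against 7.28, 7.19 and 6.91 in the controls, lower in every knockdown array than in any control. Its log2 difference was -0.42 with an adjusted p of 0.0807 by limma, and of 0.0450 with the replicate block (0.0259 to 0.239 over the alternatives). Atg12 was also separate between the groups, with a difference of -0.22 (-0.44 to -0.01). Atg7, the activating enzyme of both reactions, had -0.33 (-0.66 to 0.00), and Atg3, which hands Atg8 proteins to lipid, -0.02 (-0.30 to 0.25).

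**Figure D2:**
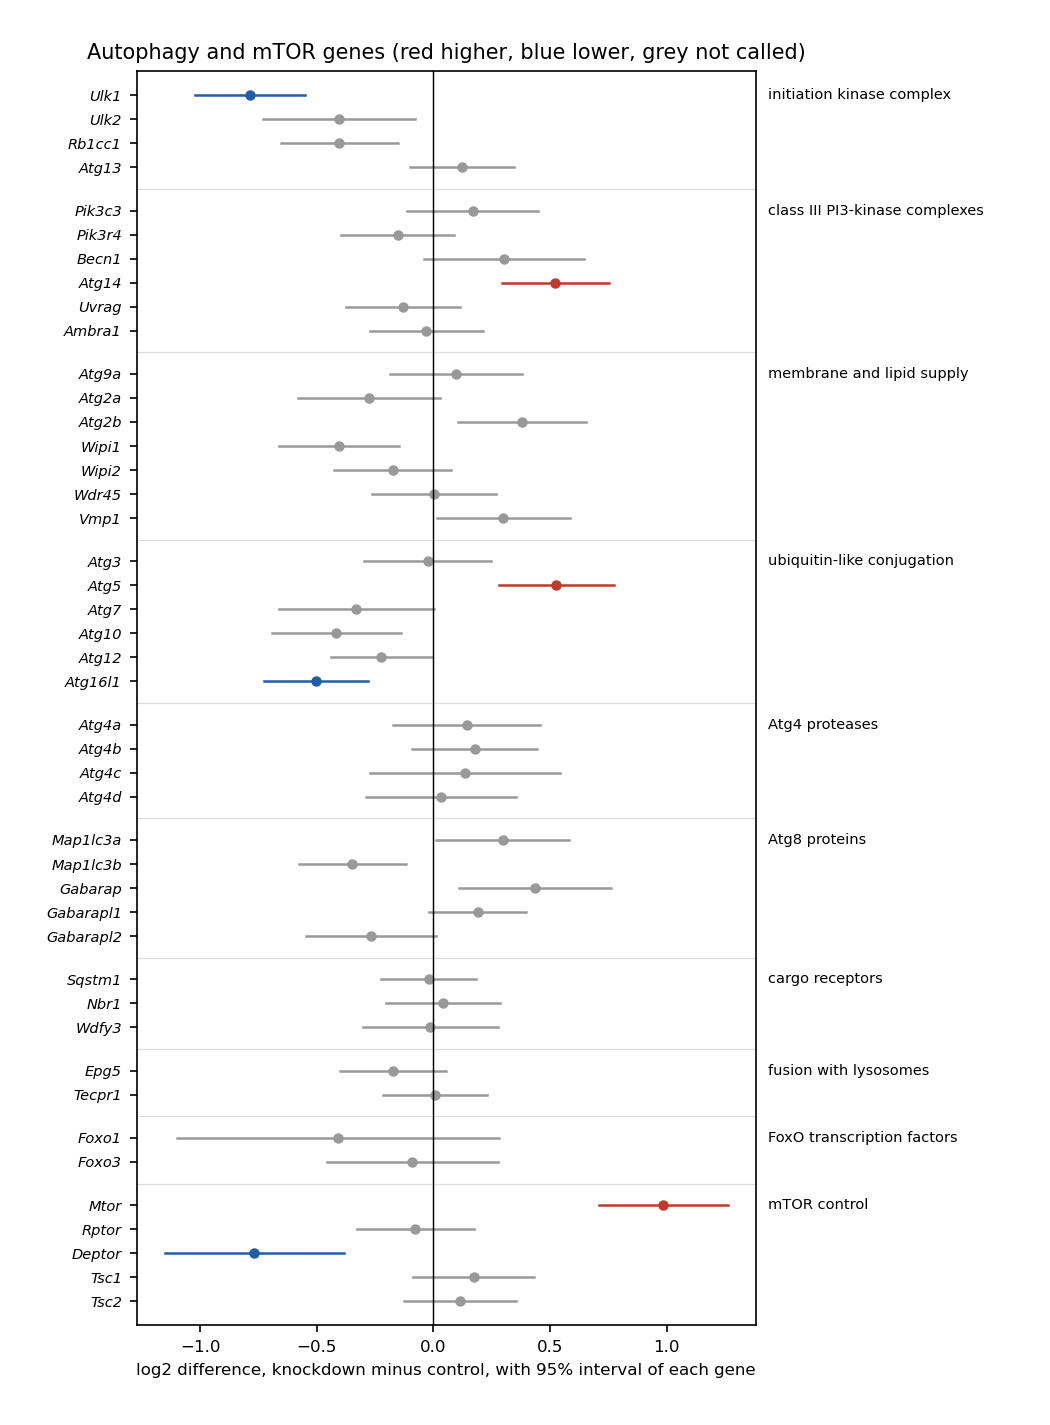
Log2 difference (knockdown minus control) of all 44 measured members by role; points are group mean differences and lines the 95% interval of each gene from limma, not adjusted for the number of genes. Mtor at 0.99 and Ulk1 at -0.79 lie farthest from 0 on either side, and 38 members shown in grey did not pass.

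The 4 Atg4 proteases trim Atg8 proteins so that they can be conjugated, and release them again. All 4 had small differences above 0, from 0.03 for Atg4d to 0.18 for Atg4b, and 0 passed by limma or had an unadjusted p under 0.05. Atg4b stood at 8.23, 8.16 and 8.11 in the knockdown and 8.16, 8.01 and 7.80 in the controls. Atg4a stood at 5.16, 5.42 and 5.33 against 4.91, 5.23 and 5.34. Both overlapped between the groups. The interval of Atg4b, -0.09 to 0.45, and that of Atg4c, -0.27 to 0.54, leave room for moderate changes.

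Atg8 proteins coat the autophagosome and fall into the LC3 and GABARAP branches. Map1lc3b, the source of the LC3 protein most used as an autophagosome marker, had levels of 11.46, 11.36 and 11.29 in the knockdown and 11.80, 11.64 and 11.71 in the controls. Gabarap had 11.22, 11.37 and 11.52 against 10.73, 10.89 and 11.18. Map1lc3b was thus lower and Gabarap higher in every knockdown array than in any control, the latter by a narrow margin. Neither passed, at log2 differences of -0.35 for Map1lc3b (limma adjusted p 0.0804) and 0.44 for Gabarap (0.115).

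Gabarap has a second probe set that behaved alike, at 9.71, 9.84 and 9.91 against 9.23, 9.19 and 9.56, a difference of 0.49. With the replicate block Gabarap passed, at an adjusted p of 0.0318 by limma (0.0318 to 0.296 over the alternatives). Map1lc3b did not, at 0.0621, but passed at 0.0263 among genes with a mean level of at least 6. Map1lc3a had a log2 difference of 0.30 (0.01 to 0.58) and Gabarapl1 of 0.19 (-0.02 to 0.40), both without overlap and higher in the knockdown. Gabarapl2 had -0.27 (-0.55 to 0.01) with overlapping groups. The ratio of Gabarap to Map1lc3b was 0.78 (SE 0.21) higher on the log2 scale in the knockdown (exact two-sided permutation p 0.1). It, too, had to separate, since each gene did so and in opposite directions.

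Cargo receptors link ubiquitin-marked material to Atg8 proteins, and the levels of the 3 members measured in this role hardly differed. Sqstm1, encoding p62, which is degraded together with its cargo, stood at 10.65, 10.68 and 10.64 in the knockdown and 10.69, 10.65 and 10.69 in the controls. Its difference of -0.02 had a 95% interval of -0.22 to 0.18. Nbr1, a related receptor, stood at 9.48, 9.24 and 9.34 against 9.25, 9.28 and 9.41. Wdfy3, a large scaffold for protein aggregates, had a difference of -0.01 (-0.30 to 0.28). The groups overlapped for all 3.

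Epg5 and Tecpr1 act when autophagosomes fuse with lysosomes. Epg5 had levels of 6.89, 6.72 and 6.84 in the knockdown and 7.00, 6.92 and 7.05 in the controls, which did not overlap, with a difference of -0.17 (-0.40 to 0.05). Tecpr1 stood at 7.45, 7.33 and 7.30 against 7.35, 7.29 and 7.42, a difference of 0.01. Neither passed the test.

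FoxO factors switch on autophagy genes when growth factor signalling is low. Foxo1 had levels of 8.23, 7.91 and 8.12 in the knockdown and 9.07, 8.69 and 7.73 in the controls, where control replicate 3 lay below all knockdown arrays. Its log2 difference was -0.41 (-1.10 to 0.28), with an adjusted p of 0.517 by limma. Without control replicate 3 the difference was -0.79 and the adjusted p 0.0294, the sole alternative in which Foxo1 was called (0.0294 to 0.852). A second probe set showed the same order of arrays in the controls, at 7.43, 7.20 and 6.75. Foxo3 stood at 6.53, 6.37 and 6.87 against 6.44, 6.79 and 6.81, a difference of -0.09 (-0.46 to 0.28).

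**Figure D3:**
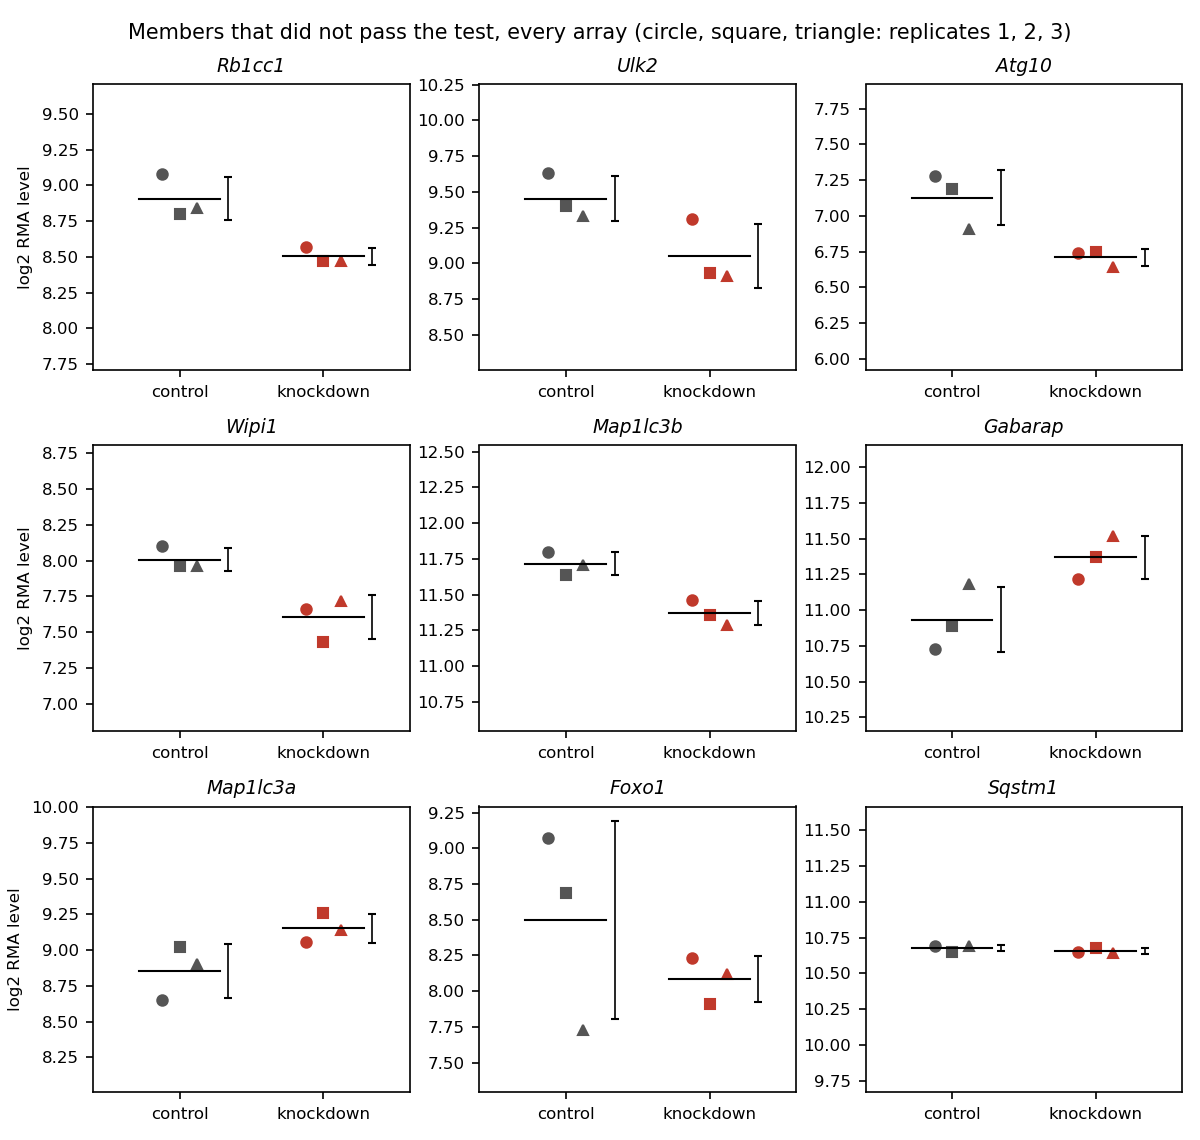
Log2 RMA levels of 9 members that did not pass the test, drawn as for those that passed, with 2 log2 units per panel. Rb1cc1, Ulk2, Atg10, Wipi1 and Map1lc3b lay lower and Gabarap and Map1lc3a higher in all knockdown arrays, Sqstm1 was level, and Foxo1 had 1 control array below the knockdown arrays.

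Same-numbered knockdown and control arrays deviated together in replicates 1 and 3, at correlations of 0.43 and 0.37, and weakly in replicate 2, at 0.12. Once the replicate number entered as a block, 4 members rose and 6 fell. Those added were Gabarap among the higher and Rb1cc1, Ulk2 and Atg10 among the lower, and all 6 earlier calls held. With the block 11.7% of all genes were called. Leaving out knockdown replicate 2 or 3 or control replicate 2 left 1 member that rose, Mtor, and leaving out control replicate 3 left 2, Mtor and Atg14. Ulk1 was the 1 member that fell when knockdown replicate 2 or 3 or control replicate 1 or 2 was left out. Leaving out knockdown replicate 1 left 2 that fell, Ulk1 and Atg16l1, and leaving out control replicate 3 gave 5, with Atg10 and Foxo1 added. Once RNA integrity entered the fit, 1 rose and 2 fell, namely Mtor, Ulk1 and Deptor. The part of RNA integrity in the other calls was not tested beyond this fit.

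**Figure D4:**
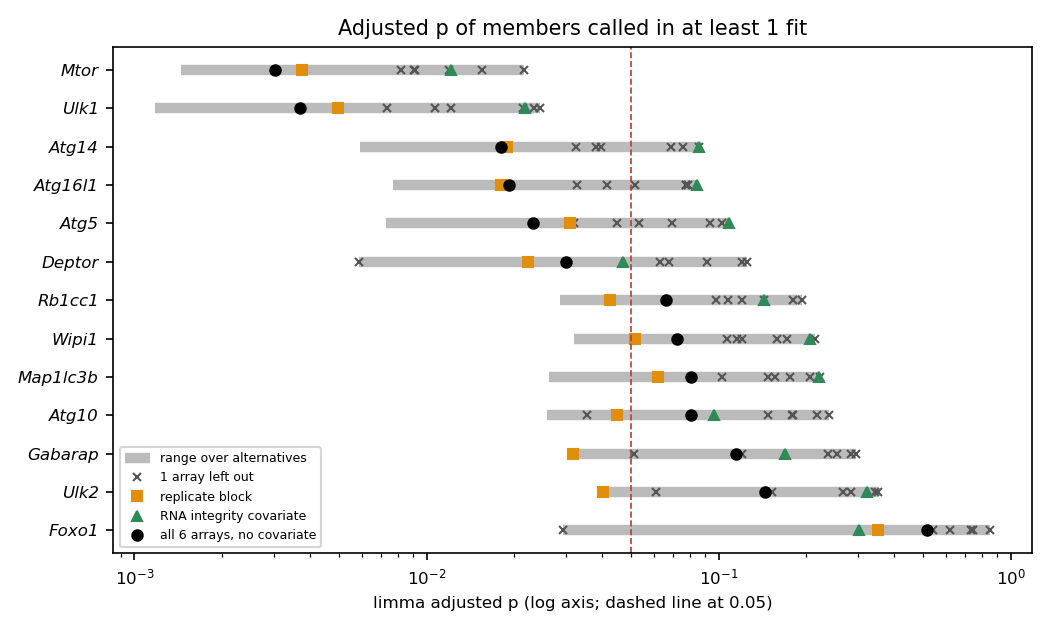
Limma adjusted p (log axis) of the 13 members called in at least 1 fit; black circles are the fit to all 6 arrays, crosses the fits without 1 array, squares the replicate block, triangles the RNA integrity covariate and grey bars the range over 16 alternatives. The whole range of Mtor and Ulk1 lies left of the dashed line at 0.05, and the ranges of the other 11 cross it.

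Some markers of several cell types moved with the knockdown. Among 9 neuron markers Dcx, of young neurons, rose 1.69-fold and Snap25, of synapses, fell 1.42-fold; 5 had an unadjusted p under 0.05 by limma, and 4 were called with the replicate block. Dcx lost its call when any knockdown array (0.0693 to 0.0704) or control replicate 2 (0.077) was left out, Snap25 whichever array but control replicate 3 was left out (0.0811 to 0.168), and both when RNA integrity entered the fit (0.109 and 0.0966). Pdgfra, 1 of 5 oligodendrocyte precursor markers, rose 6.96-fold, a call lost when control replicate 2 was left out (0.0575) and when RNA integrity entered the fit (0.0514). The other 4 were not called, with Olig2 (0.52) and Sox10 (0.23) above 0 and Cspg4 (-0.05) and Olig1 (-0.19) below. Rgs5, 1 of 6 fibroblast and pericyte markers, fell 2.64-fold and was called in all 16 alternatives. The other 5 went the other way, at log2 differences of 0.03 to 0.30, and were not called. Of 4 dividing cell markers (Mki67, Top2a, Cdk1 and Bub1) the first 3 rose, and the summed linear level was 113 to 226 in the knockdown arrays and 66.6 to 79.5 in the controls, with Top2a, Cdk1 and Bub1 at mean log2 levels under 5. Their calls were lost when knockdown replicate 3 (0.0664 to 0.0815) or control replicate 2 (0.0689 to 0.113) was left out. Without knockdown replicate 2 those of Mki67 (0.055) and Top2a (0.0963) were lost, and without control replicate 3, or with RNA integrity in the fit, those of Top2a (0.0551 and 0.094) and Cdk1 (0.0655 and 0.0966). Inhibitory neuron markers had a summed linear level of 3240 to 6720 in the knockdown and 5110 to 12200 in the controls, with 1 of 7, Lhx6, called. Within each same-numbered pair the knockdown sum was the lower, and 4 of 7 (Lhx6, Dlx2, Sst and Npy) were called with the replicate block, all lower. Sst, the brightest at mean log2 levels of 11.53 in the knockdown and 12.35 in the controls, weighs most in the sum. Gad1, Gad2 and Slc32a1 were called in neither fit, at log2 differences of 0.11, -0.45 and -0.22. The part of all these markers in the changes of Mtor, Ulk1, Atg5, Atg14, Atg16l1 and Deptor was not tested. In a mixed culture a lower share of cells that express a gene and less RNA of it per cell cannot be told apart.

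Of 55 other mTOR pathway genes measured, 9 rose, 3 fell and 43 did not pass. With the replicate block 15 were called, with Eif4ebp1 and Prkab2 added among the higher and Depdc5 among the lower. The 12 calls are 21.8%, against 7.80% of all genes and 15.9% of those at a mean level of at least 6. The list was chosen with earlier results of these data known, so these shares cannot show an excess. Grb10, an mTORC1 substrate that dampens insulin receptor signalling, stood at 8.63, 8.66 and 8.83 against 6.40, 6.34 and 7.07 and rose 4.30-fold. Rictor, the scaffold that defines the second mTOR complex, stood at 8.64, 8.66 and 8.74 against 7.74, 7.46 and 7.38 and rose 2.22-fold. Each had groups far apart and was called in all 16 alternatives, Grb10 with an adjusted p of 0.00101 and Rictor with 0.00154 by limma.

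Rictor thus rose together with Mtor, whereas Rptor did not pass. The log2 ratio of Rictor to Rptor was 0.37, 0.46 and 0.23 in the knockdown arrays and -0.67, -0.95 and -1.01 in the controls, a shift of 1.23 (SE 0.12; exact two-sided permutation p 0.1). This ratio was chosen after its values were seen. Mapkap1, another subunit of the second complex, named after its values were seen, fell by 0.52 on the log2 scale (limma adjusted p 0.0204). Its call was lost when knockdown replicate 2 (0.0871) or 3 (0.0802) or control replicate 1 (0.0525), 2 (0.0657) or 3 (0.0543) was left out, and when RNA integrity entered the fit (0.0996). Mlst8, common to both complexes, had 0.25 (limma adjusted p 0.239).

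The next genes by p included regulators of amino acid sensing. Wdr59, of the GATOR2 complex that favours mTORC1, stood at 7.92, 7.86 and 7.83 against 7.21, 7.28 and 7.23 and rose 1.55-fold, a call that held in all 16 alternatives. Nprl3, of the opposing GATOR1 complex, stood at 6.32, 6.18 and 6.33 against 7.00, 6.75 and 6.78 and fell 1.48-fold. Rragd, a Rag GTPase that recruits mTORC1 to lysosomes, stood at 9.67, 9.49 and 9.35 against 8.90, 8.36 and 8.09 and rose 2.08-fold. None of the 3 overlapped between the groups. Ddit4, a stress-induced inhibitor of mTORC1, stood at 9.36, 9.20 and 8.86 against 8.53, 8.09 and 8.28 and rose 1.79-fold.

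Adjusted p-values by limma were 0.00553 for Wdr59, 0.0185 for Nprl3, 0.0175 for Rragd and 0.0189 for Ddit4. The calls of the last 3 were lost when knockdown replicate 2 (0.0828, 0.0725 and 0.0833) or control replicate 2 (0.0565, 0.0821 and 0.0848) was left out, and when RNA integrity entered the fit (0.0626, 0.0796 and 0.0841). Leaving out knockdown replicate 3 also ended the call of Nprl3 (0.0586), and leaving out knockdown replicate 1 those of Rragd (0.0552) and Ddit4 (0.0544). Of the AMP-activated kinase, which reports low energy and acts on both mTORC1 and Ulk1, the catalytic subunit Prkaa1 fell 1.58-fold and the regulatory subunit Prkag2 rose 1.53-fold. The remaining calls were Rps6kb2, a kinase activated by mTORC1, with a log2 difference of 0.71, Fnip2, of the folliculin complex, with 0.48, and Tbc1d7, the third subunit of the Tsc1-Tsc2 complex, with 0.41. These 5 were named after their values were seen, and adjusted p-values by limma ran from 0.0189 to 0.0376. Each lost its call when knockdown replicate 2, knockdown replicate 3 or control replicate 2 was left out (0.0542 to 0.141 over these fits) and when RNA integrity entered the fit. So did Prkag2, Fnip2 and Tbc1d7 when knockdown replicate 1 was left out, Prkaa1, Rps6kb2 and Tbc1d7 for control replicate 1, and Prkaa1 and Tbc1d7 for control replicate 3. In all, 3 genes of the list were called when knockdown replicate 2 or control replicate 2 was left out, 5 for knockdown replicate 3, 7 for knockdown replicate 1, 8 for control replicate 1 and 10 for control replicate 3.

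**Figure D5:**
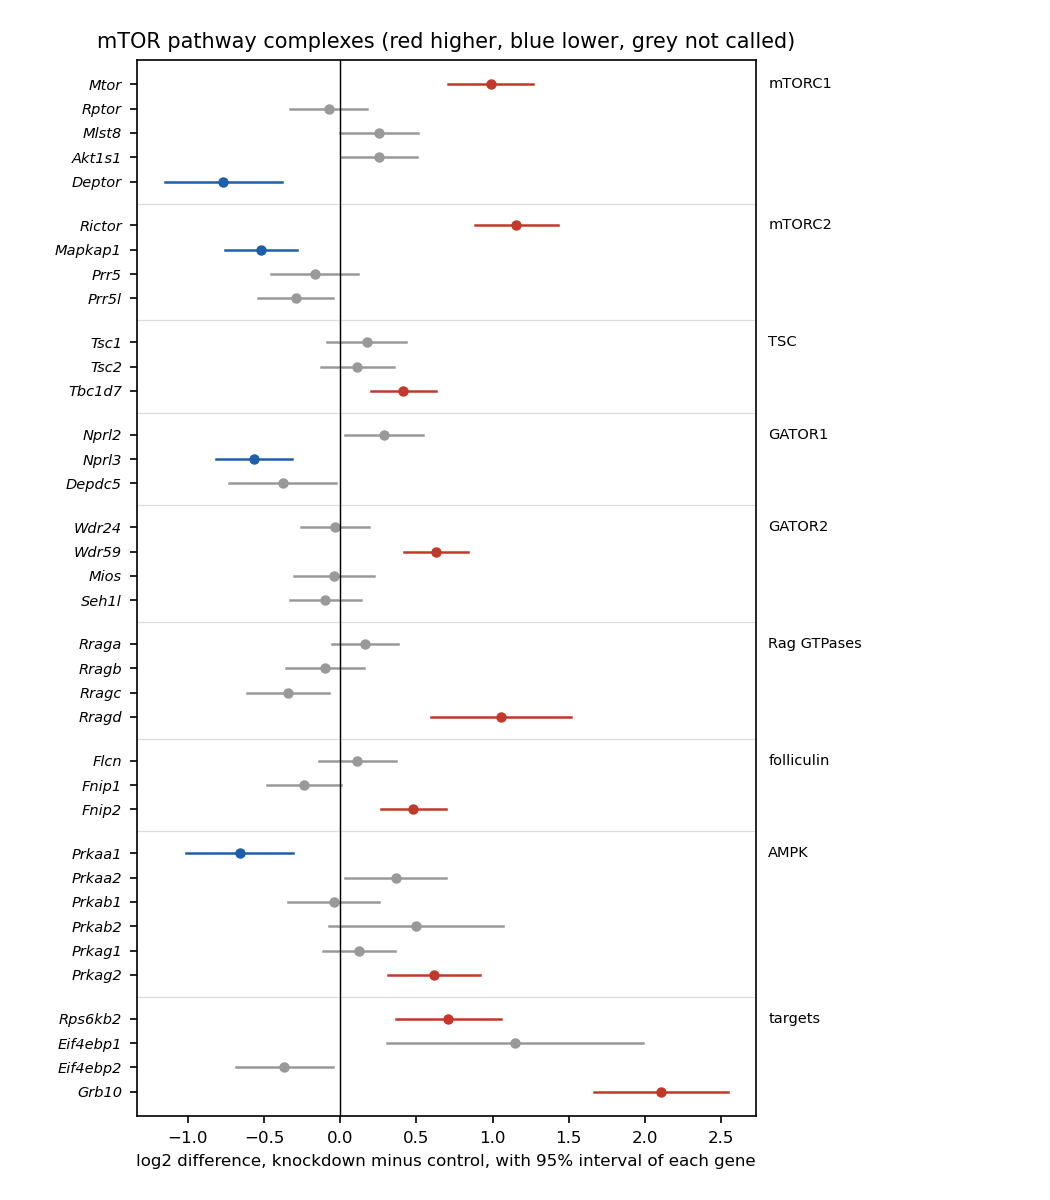
Log2 difference (knockdown minus control) with the 95% interval of each gene for subunits of mTOR complexes and their regulators; subunits common to both mTOR complexes are drawn once, under mTORC1. Mtor, Rictor, Rragd, Grb10 and the uncalled Eif4ebp1 lie 0.99 or more above 0, and Deptor and Prkaa1 are the lowest at -0.77 and -0.66.

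Of 32 other autophagy genes measured, 1 rose and 4 fell, or 15.6%, against 7.80% of all genes (4.17% higher and 3.64% lower). Among all genes at a mean level of at least 6 the share was a similar 15.9% over both directions, with 8.66% higher and 7.25% lower. However, 26 of the 32 reached that level, and the called Fundc1 did not. This list, too, was chosen with earlier results of these data known, so its shares cannot show an excess. Dap, which restrains autophagy, stood at 5.84, 5.34 and 5.30 in the knockdown and 7.48, 7.55 and 7.87 in the controls, 4.41-fold lower. Trp53inp1, a p53 target that binds LC3, stood at 9.22, 9.33 and 9.63 against 7.50, 7.71 and 7.91, 3.22-fold higher. Its relative Trp53inp2, which also binds Atg8 proteins, went the other way, at 7.00, 7.22 and 7.16 against 7.81, 8.02 and 8.02. These 3 had no overlap between the groups and were called in all 16 alternatives.

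Fundc1, a mitochondrial receptor for autophagy, had a dim probe set at 4.72, 4.72 and 4.48 against 5.28, 5.39 and 5.33 and fell 1.62-fold, a call that held in the 14 alternatives it entered. Plekhm1, an adaptor between autophagosomes and lysosomes, fell by 0.41 on the log2 scale, a call lost whichever array was left out (limma adjusted p 0.0604 to 0.121) and when RNA integrity entered the fit (0.0927). Tmem41b, which works beside Vmp1, stood at 8.66, 8.46 and 8.09 against 7.88, 7.83 and 7.72 (limma adjusted p 0.0516). The replicate block lowered it to 0.0202 and gave 8 called genes in the list. Tfeb and Tfe3, transcription factors of autophagy and lysosome genes, did not pass, at log2 differences of -0.15 (limma adjusted p 0.513) and -0.33 (0.0807).

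Of 19 measured FoxO target genes 0 rose and 3 fell, or 15.8%, against 7.80% of all genes (4.17% higher and 3.64% lower). Among all genes at a mean level of at least 6 the share was 15.9% over both directions, with 8.66% higher and 7.25% lower. However, 14 of the 19 reached that level, and the called Bcl2l11 did not. The list was chosen with earlier results of these data known, so these shares cannot show an excess. Klf6, a zinc-finger factor, stood at 8.05, 8.21 and 8.04 against 8.54, 8.65 and 8.84. Cited2, a transcriptional co-regulator, stood at 8.89, 9.49 and 9.10 against 9.64, 10.43 and 10.41. Both were lower in every knockdown array than in any control. Bcl2l11, the cell death gene Bim, fell 1.40-fold from a low level. Adjusted p-values by limma were 0.0207 for Klf6, 0.0413 for Cited2 and 0.0426 for Bcl2l11. All 3 calls were lost whichever array but control replicate 1 was left out (0.0516 to 0.157), and when RNA integrity entered the fit (0.0998 to 0.172). Bcl6, Cat and G6pc3, next by p, did not pass, at log2 differences of -0.45, -0.36 and -0.26. With the replicate block Bcl6 passed (limma adjusted p 0.0393), and 4 genes of the list were called.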

How the data were processed

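Total RNA of 3 knockdown and 3 scrambled control samples was read on Affymetrix arrays, 1 per sample. The files as deposited hold 1 log2 level for each probe set; the submitters' processing notes name RMA and Affymetrix Expression Console (1.2.1.20). RMA gives every array the same distribution of probe intensities, though not exactly of probe set levels. A shift shared by most genes therefore cannot be seen, and its background step compresses weak signals. The sources used here do not name the genome build of the probe annotation, and no detection calls were used.

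Of 41345 probe sets, 23521 have 1 gene symbol, 1814 have several and were not used, and 16010 have none here. The brightest 1-symbol probe set by mean over all arrays gave 22180 genes, 21994 of them matched by Entrez number to RefSeq. Deptor, Foxo1 and Gabarap have 2 such probe sets.

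Groups were taken from the labels. Knockdown minus control was fitted over all genes with limma 3.58.1 in R 4.3.3 (lmFit, eBayes without trend, Benjamini-Hochberg adjustment, called under 0.05). This fit was run on simulated data without a replicate effect, which tests neither the blocked fit nor the other alternatives. Folds are 2 to the power of the difference of group means, and 95% intervals are per gene and unadjusted. Single values also had exact permutation tests over arrays. Motif matches are exact. The members, pathway and marker lists and tests were chosen with earlier results of these data known. Every member is named, with all 6 values for those called and the 2 with the smallest p in each role, and of each other pathway list the 6 genes with the smallest p. Some further genes are named as chosen after their values were seen.

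Deviations from the group means correlated at 0.43, 0.12 and 0.37 for same-numbered knockdown and control arrays and at -0.38 to 0.06 otherwise. All 3 exceeded 0.1, that of replicate 2 narrowly, which meets the criterion for pairing by their values, though no label states it. The calls, errors and permutation tests are from the fit without the block. The blocked value is given for each call of a member and each count of a list that it changes. The alternatives included the replicate block, each array left out, RNA integrity as a covariate, quantile normalization, median centring and minimum mean levels of 5 and 6. Others were an intensity trend, array weights, robust fitting and averaging the probe sets of a gene. Figures were drawn with matplotlib 3.10.9.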

Additional observations from a re-analysis of the deposited data

How the results depend on the processing

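Mtor and Ulk1 kept their direction and call in all 16 alternatives, and all 6 called members kept their direction. Members that rose numbered 3, and 1 to 3 over the fits without 1 array and 1 with RNA integrity as a covariate. Members that fell numbered 3, and 1 to 5 without 1 array, 6 with the replicate block, 7 with a minimum mean level of 5 or of 6, and 5 with an intensity trend or array weights. All genes called numbered 1731, and 689 to 1487 without 1 array, 2703 with array weights and 758 with RNA integrity as a covariate. Other autophagy genes called numbered 5, and 4 to 5 without 1 array and 8 with the replicate block. Other mTOR pathway genes called numbered 12, and 3 to 10 without 1 array and 3 with the covariate. FoxO targets called numbered 3, and 0 to 3 without 1 array and 0 with the covariate, where 5 had an unadjusted p under 0.05 by limma (4 to 6 without 1 array). The fits without 1 array have fewer samples and those with a minimum level test fewer genes; the cause of the other shifts was not tested. The replicate block changed no other call of a member than those named. Of the members, 7 were called in alternatives alone, and 9, all within 0.09 of 0 and uncalled, changed sign in at least 1 alternative. Low levels such as those of Vmp1 and Fundc1 limit what their probe sets can show.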
